A study of Mus musculus with 36 samples.

Results

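Expression of 9 genes of the red cell lineage (Car1, Car2, Rhag, Tfrc, Epb42, Klf1, Alas2, Slc4a1 and Tspan33) was followed in the spleen and liver of tumour-bearing mice. Every array probe that the platform annotation assigns to one of these symbols was taken, which gave 12 of the 23982 probes and 9 of the 14739 named genes: 3 probes for Rhag, here a, b and c, 2 for Car2, here a and b, and 1 for each other gene. Total RNA was measured on 36 Illumina BeadChip arrays, 18 per tissue, in 12 groups of 3. All animals were male BALB/c mice that had received J558 myeloma cells, a mouse plasma cell tumour line of the same strain, under the skin and ate standard chow. They drank oil palm phenolics (OPP, a water-soluble polyphenol extract of the oil palm) at 1500 ppm gallic acid equivalents, or distilled water. Within each drink and tissue the time label was 18 hours (age 6 weeks), 1 week (age 7 weeks) or 4 weeks (age 10 weeks), so time and age cannot be told apart. The treatment label says 4 weeks for every animal, so what the times count from is not settled, and mice without tumour were not among the samples. The labels do not say whether a replicate was 1 mouse or a pool, so p-values rest on the spread between arrays.

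Red cells arise from progenitors that first multiply and then fill with haemoglobin. In this course the transcription factor KLF1 acts with GATA1 to switch on the genes of the lineage, and the transferrin receptor (Tfrc) brings in the iron that haem synthesis consumes. The mouse spleen, unlike that of adult humans, keeps making red cells in its red pulp and expands this output under stress, whereas the adult liver normally does not. Carbonic anhydrase 1 (Car1) marks early erythroid cells in the mouse, ALAS2 starts haem synthesis, and band 3 (Slc4a1), protein 4.2 (Epb42) and the Rh-associated glycoprotein (Rhag) are parts of the red cell membrane.

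Each deposited value is a linear ratio in which a probe is divided by the median it had across one tissue's 18 arrays, so levels cannot be compared between genes or between tissues. Differences are given on the log2 scale, the later time or OPP first, with the standard error (SE) of the limma model and 3 arrays per group. A probe was called at an adjusted p under 0.05 over all 23982 probes (Benjamini-Hochberg). Array medians of log2 ratios lay between -0.06 and 0.11 in spleen and between -0.03 and 0.04 in liver. One spleen array, water replicate 3 at 1 week, stood apart from its group: the median log2 ratio of the 12 probes was -0.96 there, against 0.06 and -0.02 in the other arrays of that group. The main counts of called probes that use it, and the main differences named for the 9 genes, are given with and without it. Values under centring and the other alternatives, and counts by unadjusted p, are given with it only. It was singled out by the values of these 12 probes, so repeats without it are a description. Since whole tissue was measured, fewer erythroid cells and less RNA per cell cannot be told apart.

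In spleen, most of the erythroid genes were low at 18 hours and highest at 4 weeks, with either drink. Klf1, the lineage regulator, had ratios of 0.482, 0.392 and 0.686 at 18 hours, 1.13, 1.00 and 1.16 at 1 week and 1.32, 1.07 and 1.20 at 4 weeks in OPP mice. In water mice it had 0.599, 0.455 and 0.682 at 18 hours, 0.999, 1.13 and 0.591 at 1 week and 1.12, 1.11 and 0.996 at 4 weeks. All 3 arrays of 18 hours were thus below all arrays of the later times in OPP mice, and in water mice the 1-week array with 0.591 overlapped the 18-hour range. In OPP mice 12.9% of all probes were higher on every array of 1 week than of 18 hours, and 36.2% were at 4 weeks. In OPP mice Klf1 rose by 1.11 (SE 0.21, adjusted p = 0.0123) between 18 hours and 1 week, and its further difference to 4 weeks was 0.13 (SE 0.21, adjusted p = 0.682). The early call was lost without OPP replicate 2 of 18 hours (0.93) or OPP replicate 1 (1.09) or 3 (1.07) of 1 week.

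Tfrc, which imports transferrin-bound iron, had ratios of 0.451, 0.415 and 0.467 at 18 hours, 1.14, 1.04 and 1.02 at 1 week and 1.53, 1.22 and 1.49 at 4 weeks in OPP mice. In water mice the ratios were 0.603, 0.471 and 0.685 at 18 hours, 0.973, 0.979 and 0.512 at 1 week and 1.34, 1.27 and 1.17 at 4 weeks. The 3 times did not overlap in OPP mice. Over all probes 12.9% were higher with no overlap from 18 hours to 1 week, and 43.8% from 1 week to 4 weeks. Tfrc rose by 1.27 (SE 0.18, adjusted p = 0.0037) in OPP mice from 18 hours to 1 week, a 2.41-fold increase, and by 1.66 (SE 0.18, adjusted p = 4.81e-06) from 18 hours to 4 weeks.

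Car1, a cytosolic carbonic anhydrase, changed most of the 12 probes between 18 hours and 4 weeks. Its ratios were 0.448, 0.397 and 0.568 at 18 hours, 1.00, 1.00 and 0.969 at 1 week and 1.99, 2.18 and 2.19 at 4 weeks in OPP mice. Its ratios in water mice were 0.608, 0.43 and 0.6 at 18 hours, 1.23, 1.05 and 0.462 at 1 week and 1.7, 1.82 and 1.45 at 4 weeks. From 18 hours to 4 weeks Car1 rose by 2.19 in OPP mice (SE 0.24, 4.55-fold, adjusted p = 4.49e-06) and by 1.61 in water mice (SE 0.24, 3.05-fold, adjusted p = 0.000579). It was also called from 1 week to 4 weeks, at 1.10 (SE 0.24) in OPP mice and 0.97 (SE 0.24) in water mice, and both of these calls held when any single array of the compared groups was left out. The water difference was 0.53 without water replicate 3 of 1 week.

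**Figure D1:**
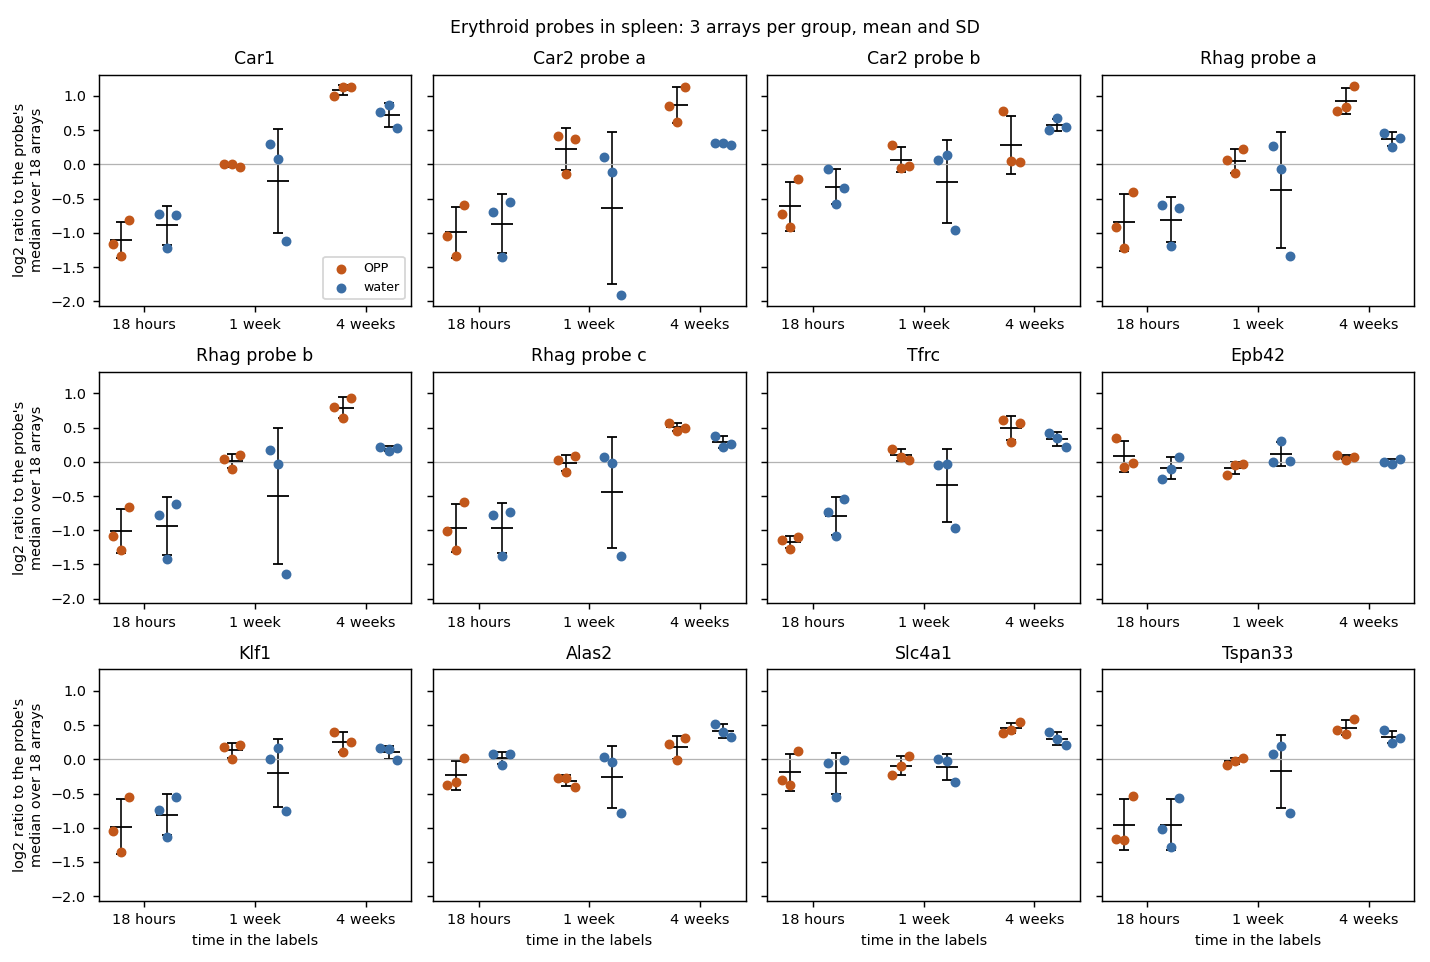
Log2 ratio of each erythroid probe to its own median over 18 spleen arrays (vertical axis), by time, for OPP (left in each pair, orange) and water (right, blue). Points are arrays, and bars are the mean and SD of 3 arrays. Arrays of 18 hours lie low in every panel but Epb42, Alas2 and Slc4a1, and 1 water array of 1 week lies below the others in most panels.

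The membrane gene Rhag, whose product forms the core of the Rh complex, moved alike on its 3 probes, with correlations of 0.98 to 0.99 between them over the 18 spleen arrays. Probe b had ratios of 0.473, 0.409 and 0.635 at 18 hours, 1.03, 0.934 and 1.07 at 1 week and 1.74, 1.56 and 1.91 at 4 weeks in OPP mice. In water mice probe b had 0.586, 0.374 and 0.65 at 18 hours, 1.13, 0.974 and 0.32 at 1 week and 1.17, 1.11 and 1.15 at 4 weeks. From 18 hours to 4 weeks the 3 probes rose by 1.47 to 1.80 in OPP mice and by 1.13 to 1.26 in water mice, where the call of probe b was lost without water replicate 2 of 18 hours (0.89).

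Tspan33, a tetraspanin needed for normal erythropoiesis in mice, had ratios of 0.448, 0.44 and 0.693 at 18 hours, 0.948, 0.985 and 1.01 at 1 week and 1.34, 1.3 and 1.5 at 4 weeks in OPP mice. It rose by 1.42 (SE 0.21) in OPP mice and by 1.28 (SE 0.21) in water mice from 18 hours to 4 weeks. The 2 probes of Car2, another carbonic anhydrase, both rose over the same span, probe a by 1.86 (SE 0.35) and probe b by 0.90 (SE 0.24) in OPP mice. In water mice probe a rose by 1.17 (SE 0.35) and probe b by 0.90 (SE 0.24). The call of probe b in OPP mice was lost without OPP replicate 2 of 18 hours (0.75) or replicate 1 of 4 weeks (0.65). That of probe a in water mice was lost without water replicate 2 of 18 hours (0.92) or replicate 1 or 2 of 4 weeks (1.16 each).

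In Alas2, which starts haem synthesis, and Slc4a1, a membrane gene, the arrays of 18 hours and 1 week overlapped with either drink. That was not so for every membrane gene. The 3 Rhag probes differed by 0.90 to 1.02 between these times in OPP mice, with no overlap, and probe c was called. Over all probes 12.9% were higher with no overlap at that step, and 2.32% were called higher. Alas2 had ratios of 0.77, 0.794 and 1.01 at 18 hours, 0.83, 0.829 and 0.753 at 1 week and 1.17, 0.991 and 1.24 at 4 weeks in OPP mice. In water mice Alas2 had 1.05, 0.94 and 1.05 at 18 hours, 1.03, 0.975 and 0.581 at 1 week and 1.44, 1.31 and 1.25 at 4 weeks. The arrays of 1 week overlapped those of 18 hours with either drink, and the difference between these times was -0.08 (SE 0.16) in OPP mice and -0.28 (SE 0.16) in water mice, or -0.02 without water replicate 3 of 1 week. From 1 week to 4 weeks Alas2 rose by 0.49 in OPP mice (SE 0.16, adjusted p = 0.0267) and by 0.67 in water mice (SE 0.16, adjusted p = 0.00673), or 0.41 without water replicate 3 of 1 week (adjusted p = 0.0343). The OPP call was lost without OPP replicate 1 (0.51) or 3 (0.44) of 1 week, or without OPP replicate 1 (0.46) or 3 (0.42) of 4 weeks. Over the whole span to 4 weeks Alas2 was not called in OPP mice (0.41), but it was without OPP replicate 3 of 18 hours (0.53) or replicate 2 of 4 weeks (0.50).

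Slc4a1 had ratios of 0.807, 0.769 and 1.08 at 18 hours, 0.854, 0.93 and 1.03 at 1 week and 1.31, 1.35 and 1.46 at 4 weeks in OPP mice. Its ratios in water mice were 0.961, 0.683 and 0.994 at 18 hours, 1.01, 0.982 and 0.791 at 1 week and 1.32, 1.23 and 1.16 at 4 weeks. With either drink the 4-week arrays lay above every earlier array, and 18 hours and 1 week overlapped. Over all probes, 43.8% in OPP mice and 35.2% in water mice were higher on every 4-week array than on every 1-week array. Against 18 hours these shares were 36.2% and 37.1%. Slc4a1 rose by 0.55 in OPP mice (SE 0.14, adjusted p = 0.00768) and by 0.42 in water mice (SE 0.14, adjusted p = 0.0381) from 1 week to 4 weeks, against 0.10 and 0.09 from 18 hours to 1 week (the water value 0.20 without water replicate 3), neither of which was called. The later call in water mice was lost without water replicate 3 of 1 week (0.31) or water replicate 1 (0.37) or 2 (0.43) of 4 weeks. Over the whole span to 4 weeks Slc4a1 rose by 0.65 in OPP mice and 0.51 in water mice (SE 0.14 each), and the water call was lost without water replicate 2 of 18 hours (0.34) or replicate 1 of 4 weeks (0.46). No test compared the course of one gene with that of another.

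The single Epb42 probe, for the membrane protein that ties band 3 to the skeleton, did not move with the others. Its ratios stayed between 0.839 and 1.27 on all 18 spleen arrays, and its SD exceeded that of 26.1% of all probes, against 86.3% to 99.6% for the other 11. Its correlation with each of those 11 lay between -0.05 and 0.17. The files give no detection call that can be tied to a sample, so whether this probe measured its transcript was not tested.

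Counted over the 12 probes, 5 rose and 0 fell between 18 hours and 1 week in OPP mice (Car1, Rhag probe c, Tfrc, Klf1 and Tspan33), where 2.32% of all probes rose. In water mice 0 were called, where 0.0959% of all probes rose. An unadjusted p under 0.05 was found for 4 of the 12, and for 3017 of all 23982 probes. Without water replicate 3 of 1 week, 8 of the 12 rose in water mice by the same test, and 3.03% of all probes then rose. The median difference over the 12 was 0.88 in place of 0.43. That array was singled out by its low values of these same 12 probes, so a larger rise without it was built in. The neutrophil and proliferation lists were low on that array too, at medians of -0.79 and -0.75, and their part in the result was not tested. The OPP count was 2, 1 and 8 without OPP replicates 1, 2 and 3 of 18 hours, and 1, 3 and 1 without OPP replicates 1, 2 and 3 of 1 week. Over all probes 1.81%, 0.213% and 4.77%, then 0.2%, 2.02% and 0.2%, were called in either direction in these fits. Tfrc was called in all 6 of these fits.

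Between 18 hours and 4 weeks 10 of the 12 rose in OPP mice and 10 in water mice, all but Epb42 and Alas2, where 27% and 23% of all probes rose. The median difference was 1.45 over the 12 probes and 0.11 over all probes in OPP mice, and 1.12 and 0.14 in water mice. Between 1 week and 4 weeks 4 rose in OPP mice (Car1, Rhag probe a, Alas2 and Slc4a1) and 6 in water mice (Car1, Car2 probe b, Rhag probe c, Tfrc, Alas2 and Slc4a1), where 28.8% and 24.4% of all probes rose. The later step is thus near the background in OPP mice, and comparisons with the same group share its arrays. The water count was 2 without water replicate 3 of 1 week, where 11.4% of all probes rose in that fit, so that the share is near the background there too. It was 10 without replicate 2 of 1 week, and 2 and 3 without replicates 1 and 2 of 4 weeks. In those fits 24%, 10.5% and 18.7% of all probes were called in either direction. The OPP count was 2 without OPP replicate 1 of 1 week and 2 without OPP replicate 3 of 4 weeks, where 21.1% and 22% of all probes were called. The Rhag probe a call was lost in both, and without OPP replicate 2 of 1 week (0.78).

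The spleen arrays of 4 weeks lay higher as a whole, by medians of 0.11 to 0.17 over all probes against either earlier time. With every array centred on its median, 10 of the 12 rose in OPP mice and 9 in water mice between 18 hours and 4 weeks, where 19.4% and 10.4% of all probes rose. Between 1 week and 4 weeks 2 rose in OPP mice and 3 in water mice, where 14.1% and 9.67% of all probes rose. Over all probes, the rises made up 96.3% of the calls before and 77.5% after centring for OPP 4 weeks against 18 hours, and 94.5% and 71.9% for water. For 4 weeks against 1 week they made up 95.4% and 73.3% with OPP, and 93.6% and 67.8% with water. Alas2 was no longer called in OPP mice after centring (0.35 from 1 week to 4 weeks), nor was Slc4a1 in water mice (0.30 from 1 week to 4 weeks and 0.39 from 18 hours).

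**Figure D2:**
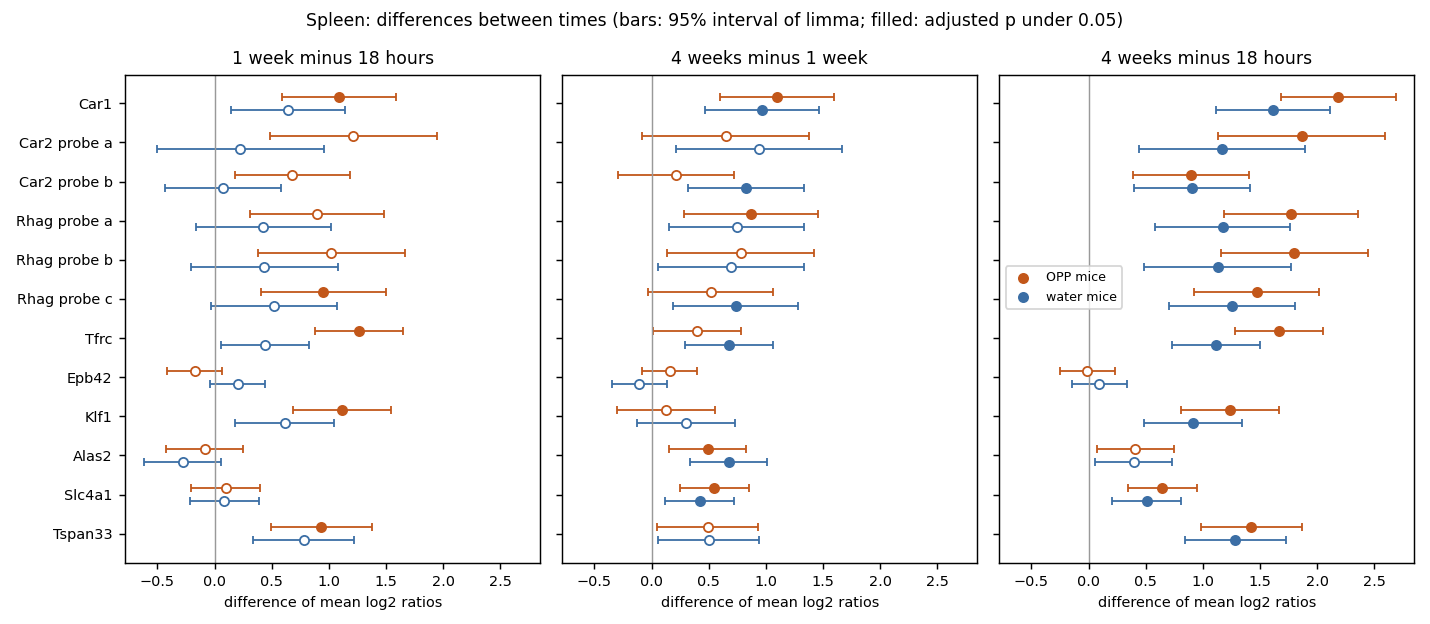
Difference of mean log2 ratios between times in spleen for each erythroid probe (horizontal axis), for OPP mice (orange, above) and water mice (blue, below). Points are model estimates with 95% intervals and are filled where the adjusted p is under 0.05. Klf1 and Tfrc lie far from 0 from 18 hours to 1 week in OPP mice, where Alas2 and Slc4a1 lie near 0.

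The promoters of the genes are shown because several of the genes rose together while the Epb42 probe did not. RefSeq promoter entries (GRCm38.p6) matched 6 of the 9 genes: Rhag, Klf1, Tspan33, Alas2, Epb42 and Tfrc. The 250 bases before each start were searched on both strands for 4 GATA motifs, the letters bound by GATA1 (AGATAA or its variant AGATAG, as well as TGATAA or its variant TGATAG), and for CCNCNCCC, a loose form of the CACCC box bound by KLF1 and by other factors of its family. The 6 genes have 7 promoter windows. At least 1 of the GATA motifs stood in 4 of the 7 (4 genes), against 26.5% of all 32851 promoter windows. CCNCNCCC stood in 4 of the 7 (3 genes), against 45.9%. The stricter form CCACACCC, also searched, stood in 0 of the 7, against 3.20%. The stretches that hold the GATA match are printed 5′ to 3′ in the direction of the gene, each 120 bases long, with the match in capitals. All 4 matches begin with TTATC here because the motif lies on the other strand. For Tspan33 the capitals mark the CCNCNCCC match, also on the other strand.
Klf1, chr8:84901862-84901981, plus strand, up to the base before the start: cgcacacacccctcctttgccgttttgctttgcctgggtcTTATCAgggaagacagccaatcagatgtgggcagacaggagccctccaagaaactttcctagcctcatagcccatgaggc
Rhag, chr17:40811029-40811148, plus strand, up to the base before the start: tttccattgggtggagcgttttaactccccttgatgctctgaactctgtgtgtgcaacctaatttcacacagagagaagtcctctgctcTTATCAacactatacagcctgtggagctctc
Alas2, chrX:150547297-150547416, plus strand, up to the base before the start: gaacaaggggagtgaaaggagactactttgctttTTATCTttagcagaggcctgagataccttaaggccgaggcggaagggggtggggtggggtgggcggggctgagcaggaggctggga
Epb42, chr2:121037008-121037127, minus strand, the far end of the window: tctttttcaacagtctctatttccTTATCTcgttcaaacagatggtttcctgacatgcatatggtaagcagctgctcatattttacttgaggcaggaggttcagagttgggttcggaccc
Tspan33, chr6:29694094-29694213, plus strand, up to the base before the start: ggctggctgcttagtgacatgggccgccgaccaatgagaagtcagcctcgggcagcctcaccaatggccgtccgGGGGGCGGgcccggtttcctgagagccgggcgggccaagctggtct

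The first base of the GATA match lay at position -80 in Klf1, -31 in Rhag, -86 in Alas2 and -226 in Epb42, counted back from -1 at the base before the start. The motif was thus present in genes that rose in spleen between 18 hours and 4 weeks (Klf1 and Rhag). It was also present in Alas2, which in spleen was called only from 1 week to 4 weeks, and in Epb42, whose probe was called at neither step there. Both Tfrc windows, one for each of its starts, held CCNCNCCC and no GATA motif. A match is a description of the letters and not a site shown to be bound.

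A wider list of erythroid genes had 57 of its 72 genes on the array with 78 probes. Its genes were chosen for their known roles, but with earlier results of these data known, so its counts are a description. In OPP mice 35 of the 78 probes (44.9%) rose and 1 fell from 18 hours to 1 week, where 2.32% of all probes rose, with a median difference of 0.57 against -0.01 over all probes. Tmem14c, a mitochondrial protein of haem synthesis, rose by 0.82 (SE 0.14, adjusted p = 0.0072), and Gfi1b, a transcriptional repressor of the erythroid and megakaryocyte lineages, by 0.91 (SE 0.17, adjusted p = 0.0134). Cldn13, a claudin of mouse erythroid cells, rose by 1.21 (SE 0.21), Tspan8 by 0.98 (SE 0.20) and Fam210b, a mitochondrial protein, by 0.87 (SE 0.17). In water mice 1 probe of the 78 rose at that step, Tmem14c by 0.61 (SE 0.14, adjusted p = 0.0441), and 35 rose without water replicate 3 of 1 week, where 3.03% of all probes rose, a repeat chosen after seeing the data.

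By role, the probes that rose in OPP mice between 18 hours and 1 week were 9 of 17 for haem synthesis and its transporters, 10 of 19 for the membrane and its skeleton, 7 of 11 for transcription factors and 9 of 26 for receptors, iron entry and maturation. Over all probes 2.32% rose at that step. Of the 5 haemoglobin probes 0 rose, a count near that background. Hbq1a, a theta-globin gene, fell by 0.79 (SE 0.14, adjusted p = 0.00947) in OPP mice, and by 0.70 (SE 0.14, adjusted p = 0.0306) in water mice. Between 1 week and 4 weeks the beta-globin probe Hbb-b2 rose by 0.63 (SE 0.11, adjusted p = 0.000529) and the alpha-globin probe Hba-a1 by 0.59 (SE 0.12, adjusted p = 0.00152) in OPP mice. In water mice Hbb-bt rose by 0.63 (SE 0.15, adjusted p = 0.00757) and Hbq1a by 0.59 (SE 0.14, adjusted p = 0.00634). Over all probes 28.8% rose at this later step in OPP mice and 24.4% in water mice, with median differences of 0.17 and 0.15. Whether the globin rises exceed that background was not tested. Globin genes exist as near-identical copies, so which copy these probes measured is uncertain.

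From 18 hours to 4 weeks 59 of the 78 probes (75.6%) rose and 1 fell in OPP mice, and 51 (65.4%) rose and 0 fell in water mice, where 27% and 23% of all probes rose. Among those with the smallest p in OPP mice were both probes of Tmem14c (1.43 and 1.73), Lmo2 (1.29, SE 0.15), Tal1 (1.37, SE 0.18) and Ldb1 (0.75, SE 0.09), whose products form a complex with GATA1, and Slc25a38 (1.61, SE 0.21), a mitochondrial glycine carrier for haem synthesis. In water mice Tmem14c rose by 0.84 (SE 0.14), Lmo2 by 0.83 (SE 0.15), Ldb1 by 0.50 (SE 0.09), Abcb6, a porphyrin transporter, by 1.01 (SE 0.19), Cldn13 by 1.26 (SE 0.21) and Rhbdd1, a rhomboid protease, by 0.64 (SE 0.11). Between 1 week and 4 weeks the list was near the background: 19 (24.4%) rose and 0 fell in OPP mice, where 28.8% of all probes rose, with Rhbdd1 at 0.59, Ldb1 at 0.48, Bcl11a, a repressor of fetal globin genes, at 0.57 and Tmem14c at 0.61. In water mice 20 (25.6%) rose and 1 fell, where 24.4% of all probes rose, with both probes of Ube2l6 (1.02 and 1.13), Rhbdd1 (0.44) and Ldb1 (0.35). Without water replicate 3 of 1 week 4 rose and 1 fell, where 11.4% of all probes rose.

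Markers of other cells moved in the same spleens. Of 37 proliferation probes (22 genes such as Mki67, Cdk1 and Birc5), 18 rose and 0 fell from 18 hours to 1 week and 31 rose from 18 hours to 4 weeks in OPP mice, and 0 and 27 rose in water mice. Over all probes 2.32% and 27% rose with OPP in these comparisons, and 0.0959% and 23% with water. The 0 became 24 without water replicate 3 of 1 week, where 3.03% of all probes rose. The list's array medians of log2 ratios ran from -0.89 to -0.41 at 18 hours, -0.06 to 0.10 at 1 week and 0.35 to 0.46 at 4 weeks in OPP mice, and from -0.70 to -0.36, -0.75 to 0.15 and 0.10 to 0.31 in water mice. Its part in the erythroid differences was not tested. Of 13 B cell probes, 7 rose from 18 hours to 4 weeks in OPP mice and 9 in water mice, and of 17 neutrophil probes 0 fell in OPP mice and 13 in water mice, where 1.05% and 1.34% of all probes fell.

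Of 13 red pulp macrophage probes, 10 rose from 1 week to 4 weeks with either drink, where 28.8% (OPP) and 24.4% (water) of all probes rose. The water count was 10 without water replicate 3 of 1 week as well, where 11.4% of all probes rose. The megakaryocyte list, a lineage close to the erythroid one, had 1 of 11 probes higher at 4 weeks than at 18 hours with either drink. T cell probes rose in 3 of 14 cases with OPP and 2 of 14 with water, and plasma cell probes in 2 of 10 and 5 of 10, over the same span, where 27% and 23% of all probes rose. Hepatocyte markers had median log2 ratios of 1.82 and 1.38 on water replicates 2 and 3 of 18 hours and 1.39 on OPP replicate 1 of 1 week, and 7 of 15 fell in water mice from 18 hours to 4 weeks. Pancreatic acinar markers had a median of -6.64 on water replicate 2 of 1 week and -2.84 on OPP replicate 1 of 1 week, and 0 of 13 were called in that span. The erythroid medians were -1.16 and -0.55 on those 18-hour arrays, against -0.70 on water replicate 1, and -0.02 and 0.03 on those arrays of 1 week. The part of these markers in the erythroid differences was not tested.

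**Figure D3:**
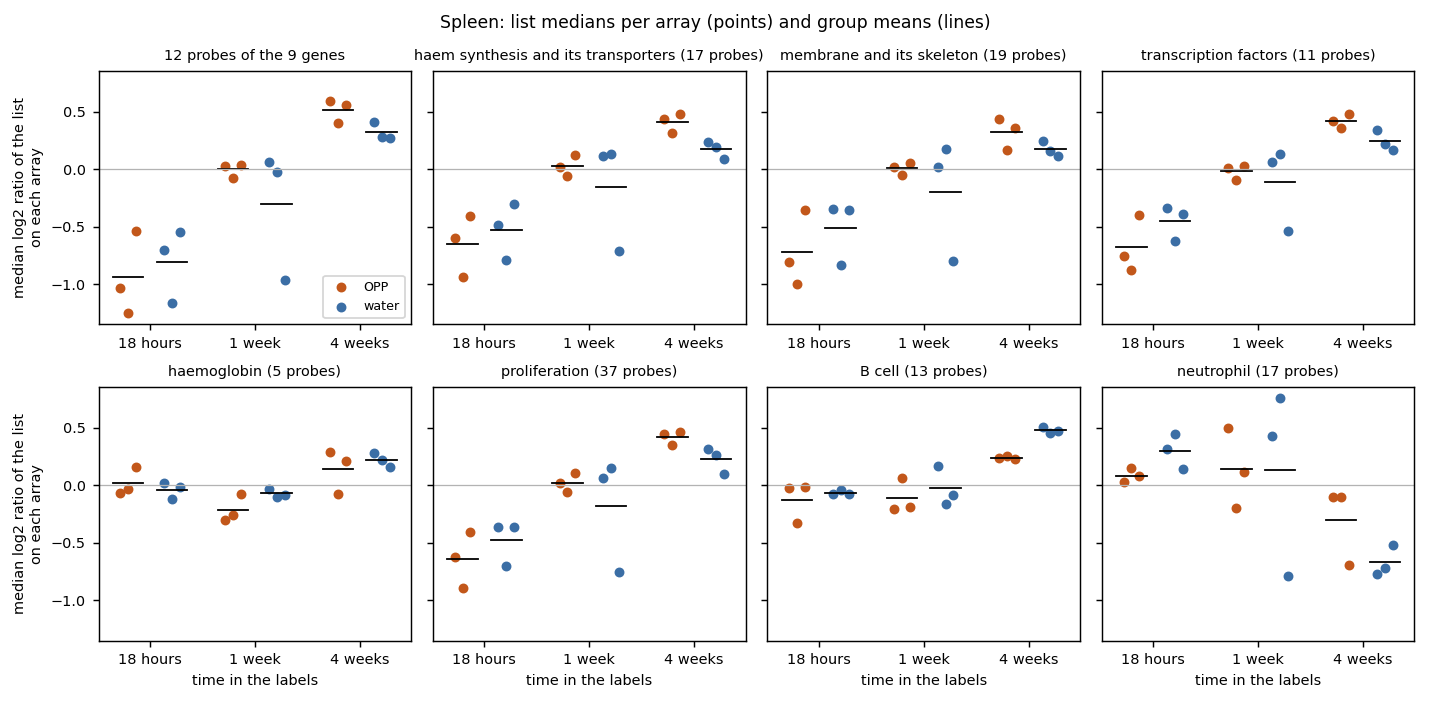
Median log2 ratio of each list on every spleen array (points; OPP orange and left, water blue and right in each pair) with group means (lines), for the 12 probes of the 9 genes and for lists of erythroid roles and other cell types. Haem synthesis, membrane, transcription factor and proliferation medians are low at 18 hours, where haemoglobin medians lie near 0.

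As a description, the named probes outside the 9 genes whose spleen pattern was most like the median of the 12 probes were Tmcc2 (Pearson r = 0.994 over 18 arrays), Birc5 (0.991), Hace1 (0.990), Nudt4 (0.989), Cdk1 (0.989), Zdhhc14 (0.988), Sppl2b (0.988), Btnl10 (0.987), Fbxo34 (0.987), Ccp110 (0.987), Ppm1d (0.986) and Tk1 (0.985). All points share the arrays and the differences between times. Within the 9 genes, the correlation with the median of the other genes ran from 0.61 for Alas2 to 0.98 for Tspan33 and was 0.10 for Epb42.

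OPP and water were set against each other at each time in spleen. Of the 12 probes 0 were called at 18 hours, 1 week or 4 weeks or in the average over times, where 0%, 0.00834%, 0.334% and 1.69% of all probes were called, and 1, 2, 0 and 1 had an unadjusted p under 0.05. Among all 23982 probes 2615, 2442, 2128 and 4001 had such an unadjusted p. Without water replicate 3 of 1 week, Alas2 was called lower with OPP in the average (-0.27, against -0.18 with it), where 4.40% of all probes were called lower in that fit. At 4 weeks the medians were 0.16 over the 12 probes and 0.01 over all probes, and 5 probes (Car1, Car2 probe a and the 3 of Rhag) were higher on every OPP array than on every water array, where 10.1% of all probes were. Rhag probe a had 1.73, 1.79 and 2.21 with OPP and 1.38, 1.19 and 1.3 with water, a difference of 0.56 (SE 0.28, 95% interval -0.03 to 1.15, adjusted p = 0.598). Car2 probe a had 1.8, 1.54 and 2.2 with OPP and 1.24, 1.24 and 1.22 with water, a difference of 0.57 (SE 0.35, adjusted p = 0.723). The OPP arrays did not overlap the water arrays for either probe, and the model's intervals include 0.

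The other Car2 probe did not show this order at 4 weeks: probe b had 1.71, 1.03 and 1.02 with OPP and 1.42, 1.59 and 1.47 with water (-0.29, SE 0.24). Alas2 was lower on every OPP array than on every water array at 4 weeks (-0.24, SE 0.16, adjusted p = 0.774), where 10.6% of all probes were. In a fit to the 6 arrays of 4 weeks alone, 3 of the 12 were called higher with OPP (Rhag probes a and b and Car2 probe a), where 3.34% of all probes were called in either direction. With array weights 2 were (Rhag probes a and b), where 5.73% were.

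At 18 hours the 12 differences ran from -0.38 to 0.17, with Tfrc lower on every OPP array (-0.38, SE 0.18, adjusted p = 0.457), where 10.7% of all probes were. At 1 week they ran from -0.20 to 0.86, with a median of 0.32, and from -0.32 to 0.22 without water replicate 3, with a median of -0.05. Tfrc was then higher on every OPP array (0.44, SE 0.18, adjusted p = 0.424), where 3.25% of all probes were, but its difference was 0.13 without that array. Epb42 was lower on every OPP array at 1 week (-0.20, SE 0.12, adjusted p = 0.575, or -0.25 without that array), where 9.65% were. In limma's F test of whether the OPP difference varied with time, 0 of the 12 were called, where 0.00417% of all probes were, and Tfrc had the smallest p of the 12 (adjusted p = 0.684, with an unadjusted value of 0.0155). Without water replicate 3 of 1 week 0 were called as well. Of the 78 probes of the wider list 0 were called at any time. Those with the smallest p at 4 weeks were Hbb-bt (-0.53, SE 0.15, adjusted p = 0.164), Tmem14c (0.40, SE 0.14, adjusted p = 0.299) and Hbq1a (-0.37, SE 0.14, adjusted p = 0.357).

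At 18 hours the smallest p of the wider list belonged to Hbb-bh1 (0.30, SE 0.11), Myb, a progenitor transcription factor (-0.46, SE 0.20), and Hebp1, a haem-binding protein (-0.42, SE 0.19), with adjusted p of 0.429 to 0.454. At 1 week it belonged to Rhbdd1 (-0.34, SE 0.11), Xk (-0.27, SE 0.09) and Uros, an enzyme of haem synthesis (0.67, SE 0.27), with adjusted p of 0.306 to 0.403. Averaged over times, Rhbdd1 (-0.22, SE 0.07, adjusted p = 0.091), Myb (-0.35, SE 0.11, adjusted p = 0.109) and Pklr, the red cell and liver pyruvate kinase (0.22, SE 0.09, adjusted p = 0.22), came nearest. Without water replicate 3 of 1 week 2 of the 78 were called lower in the average, where 4.40% of all probes were.

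**Figure D4:**
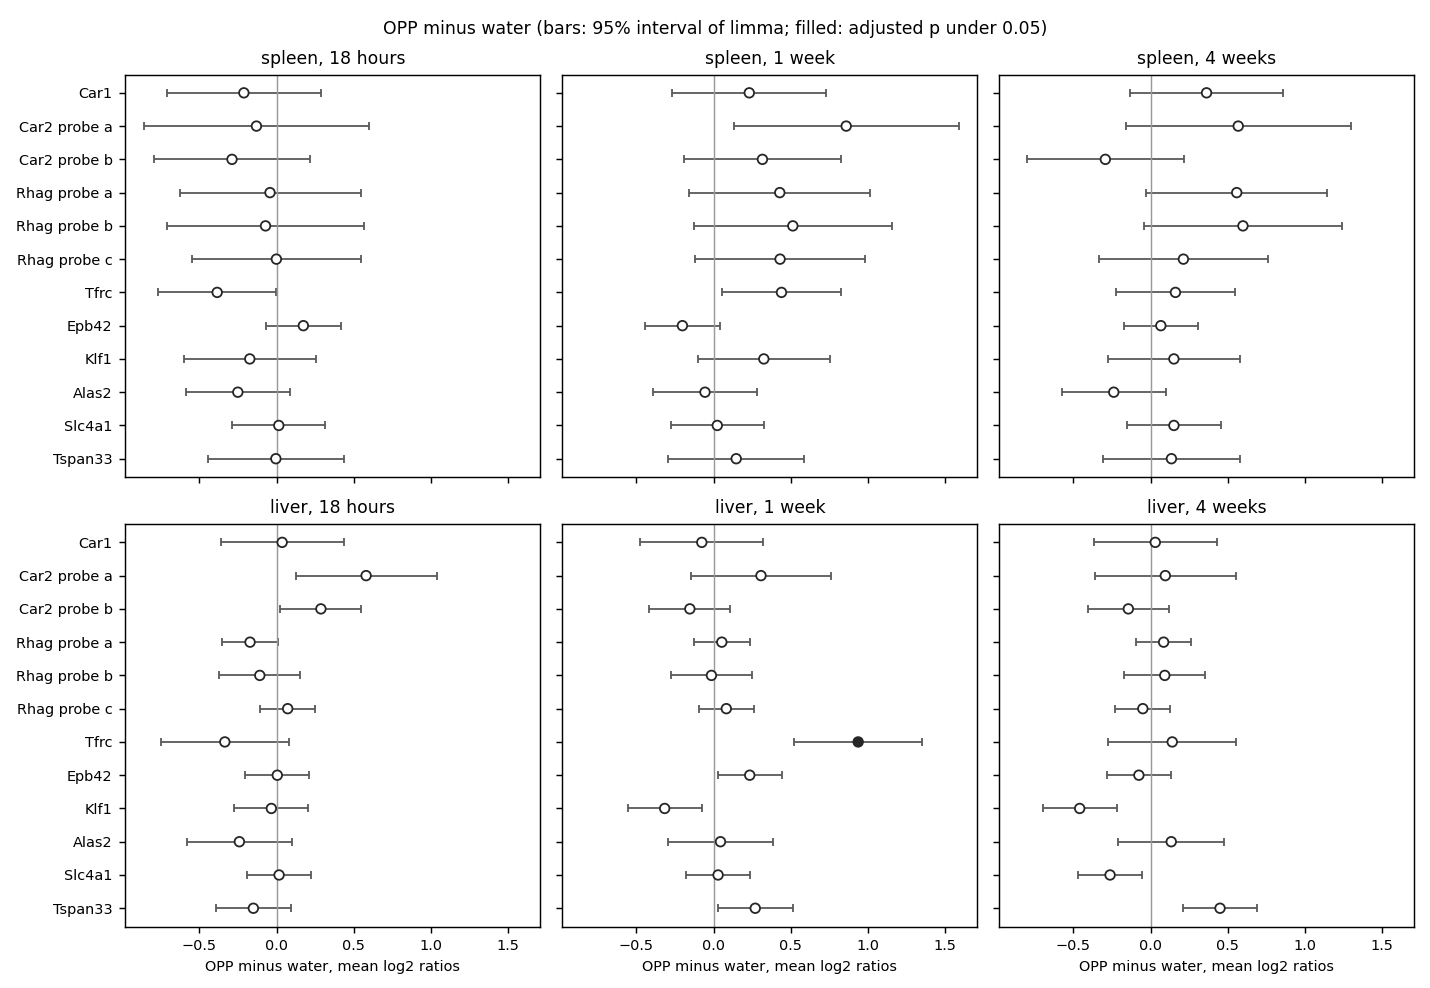
OPP minus water difference of mean log2 ratios (horizontal axis) for each erythroid probe, in spleen (upper row) and liver (lower row), at 18 hours, 1 week and 4 weeks. Points are model estimates with 95% intervals, filled where the adjusted p is under 0.05. Tfrc in liver at 1 week, at 0.94, is the only filled point.

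In liver the erythroid genes did not move as a group. Over time Car1 was low at 18 hours, as in spleen, and Alas2 was lowest then. Car1 had ratios of 0.385, 0.267 and 0.342 at 18 hours, 0.795, 1.01 and 1.17 at 1 week and 1.01, 1.36 and 1.14 at 4 weeks in OPP mice. In water mice it had 0.368, 0.39 and 0.227 at 18 hours, 0.927, 1.19 and 0.994 at 1 week and 1.06, 1.27 and 1.09 at 4 weeks. Every 18-hour array lay below every later array with either drink. At 1 week 21.9% of all probes with OPP and 13.4% with water were higher than at 18 hours with no overlap. At 4 weeks these shares were 23% and 16.3%. Car1 rose by 1.58 in OPP mice (SE 0.19) and 1.69 in water mice (SE 0.19, adjusted p = 2.01e-05) from 18 hours to 1 week, and by 1.82 and 1.83 (SE 0.19 each) from 18 hours to 4 weeks, and all 4 calls held when any single array was left out.

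Alas2 had liver ratios of 0.621, 0.666 and 0.617 at 18 hours, 0.833, 1.11 and 1.3 at 1 week and 1.11, 1.16 and 1.23 at 4 weeks in OPP mice. In water mice it had 0.769, 0.896 and 0.611 at 18 hours, 1.03, 1.1 and 0.972 at 1 week and 0.826, 1.3 and 1.13 at 4 weeks. The 18-hour arrays lay below those of both later times in OPP mice, and in water mice they overlapped those of 4 weeks. In OPP livers 21.9% of all probes were higher with no overlap at 1 week, and 23% at 4 weeks. In OPP mice Alas2 rose by 0.75 (SE 0.16, adjusted p = 0.0032) to 1 week and by 0.88 (SE 0.16, adjusted p = 0.000889) to 4 weeks. In water mice the differences were 0.46 (SE 0.16, adjusted p = 0.104) and 0.51 (SE 0.16, adjusted p = 0.0605), and the second was called without water replicate 2 of 18 hours (0.64) or replicate 1 of 4 weeks (0.69).

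From 18 hours to 1 week 4 of the 12 probes rose in OPP livers (Car1, Tfrc, Alas2 and Tspan33), where 14.7% of all probes rose, and 1 fell (Car2 probe b by 0.43, SE 0.13), where 2.61% fell. In water livers 1 rose (Car1) and 0 fell, where 4.46% of all probes rose. From 18 hours to 4 weeks 3 rose (Car1, Alas2 and Tspan33 by 0.46, SE 0.12) and Car2 probe b fell by 0.43 in OPP livers, where 13.7% rose and 3.16% fell. In water livers 2 rose, Car1 and Slc4a1 (0.47, SE 0.10, adjusted p = 0.00449), where 5.91% rose. Between 1 week and 4 weeks 0 of the 12 were called with either drink, where 0.00417% of all probes were called, and 1 of the 12 with OPP and 2 with water had an unadjusted p under 0.05. Among all 23982 probes 1607 with OPP and 1725 with water had such an unadjusted p.

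The OPP count to 1 week was 3 without OPP replicate 1, 2 or 3 of 18 hours and 2 without OPP replicate 1 or 3 of 1 week, and Tfrc lost its call in all 6 such fits. Over all probes 14.5%, 12.6% and 13.5% were called without those arrays of 18 hours, and 19.7% and 10.6% without those of 1 week. Without water replicate 2 of 18 hours the water counts were 2 and 4, where 5.85% and 7.33% of all probes were called, and Tfrc then fell by 0.88 to either later time. With all arrays the Tfrc differences were -0.64 and -0.63, and neither was called. The array left out had the lowest Tfrc log2 ratio of its group (-0.08), and the highest was 0.95 on replicate 1. The fall of Car2 probe b rested on OPP replicate 1 of 18 hours, where its ratio was 1.52 against 1.08 and 1.09 in the other arrays of the group. Without that array the difference was -0.26 to 1 week and -0.27 to 4 weeks, and neither was called. On the same array Car2 probe a had 2.38, against 0.998 and 1.06. The fall was also lost without OPP replicate 1 (-0.36) or 3 (-0.40) of 1 week, and that to 4 weeks without OPP replicate 2 of 4 weeks (-0.34). The rise of Tspan33 to 1 week was lost when any array of the compared groups other than OPP replicate 1 of 18 hours was left out, and that to 4 weeks was lost without OPP replicate 2 of 18 hours (0.37) or replicate 3 of 4 weeks (0.38).

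Rhag, whose probes all rose in spleen from 18 hours to 4 weeks, stayed between ratios of 0.808 and 1.16 on all liver arrays and was called at no comparison there. Its 3 probes had correlations of -0.15 to 0.15 with each other over the 18 liver arrays, against 0.98 to 0.99 in spleen. Car1 and Alas2 had a correlation of 0.89 in liver and 0.66 in spleen. The differences between tissues were not tested.

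Between OPP and water in liver, 1 probe of the 12 was called: Tfrc at 1 week, where 0.705% of all probes rose. Its ratios were 1.61, 1.51 and 1.76 with OPP and 0.828, 0.86 and 0.855 with water, so that every OPP array lay above every water array, as for 7.01% of all probes. The difference was 0.94 (SE 0.20, 95% interval 0.52 to 1.35, adjusted p = 0.0297), a 1.92-fold higher ratio with OPP. The call was lost without OPP replicate 2 or 3 or without any of the 3 water replicates of 1 week, while the difference stayed between 0.88 and 0.99. It was also lost with the replicate number as a block (adjusted p = 0.0507) and with a robust prior (adjusted p = 0.053), both at a difference of 0.94. At 18 hours Tfrc had 0.941, 1.09 and 1.11 with OPP and 1.93, 0.943 and 1.25 with water (-0.34, SE 0.20), and at 4 weeks 1.13, 0.977 and 0.741 with OPP and 0.691, 1.02 and 0.866 with water, which overlapped at both times. In limma's F test across times Tfrc had an adjusted p = 0.149, with an unadjusted value of 0.000926.

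**Figure D5:**
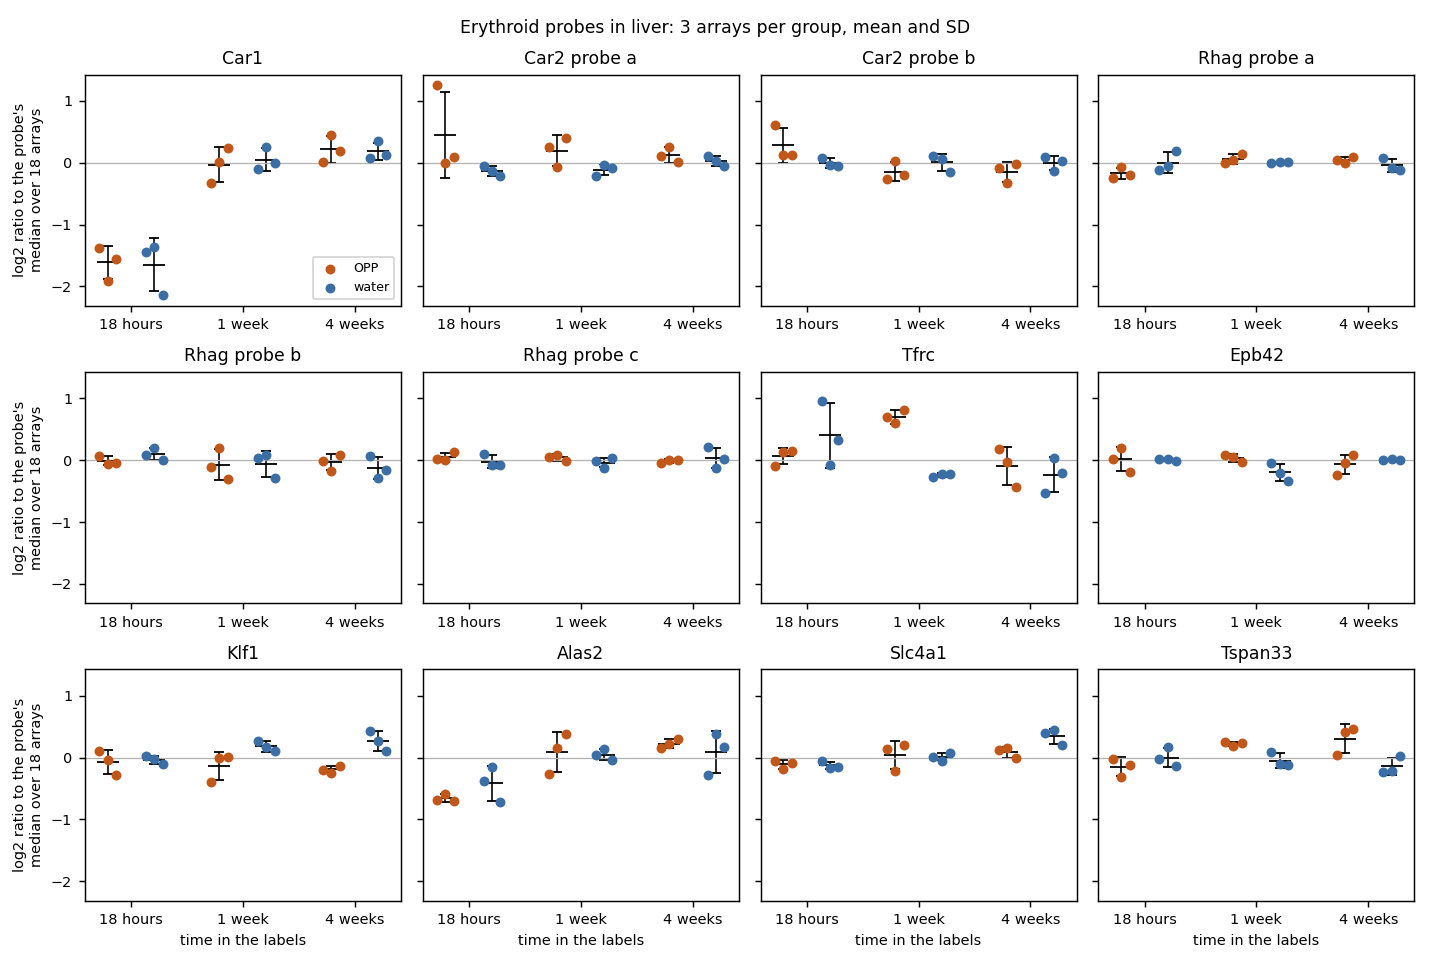
Log2 ratio of each erythroid probe to its own median over 18 liver arrays (vertical axis), by time, for OPP (left in each pair, orange) and water (right, blue). Points are arrays, and bars are the mean and SD of 3 arrays. Car1 lies low on the 6 arrays of 18 hours, Tfrc is high on the 3 OPP arrays of 1 week, and the 3 Rhag probes stay near 0.

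At 18 hours and 4 weeks and averaged over times 0 of the 12 were called in liver, where 0%, 0.0625% and 0.346% of all probes were, and 2, 3 and 4 of the 12 had an unadjusted p under 0.05. Among all 23982 probes 1824, 1857 and 2479 had such an unadjusted p. At 18 hours the 2 Car2 probes were higher on every OPP array than on every water array, where 3.61% of all probes were. Their differences were 0.58 (SE 0.22, adjusted p = 0.576) and 0.29 (SE 0.13, adjusted p = 0.626). At 1 week 3 of the 12 were higher on every OPP array (Tfrc, Epb42 and Tspan33), where 7.01% of all probes were. Klf1 was lower on every OPP array than on every water array at 1 week (-0.32, SE 0.11, adjusted p = 0.272), where 5.63% of all probes were, and at 4 weeks. At 4 weeks its ratios were 0.874, 0.845 and 0.908 with OPP and 1.34, 1.21 and 1.07 with water (-0.46, SE 0.11, adjusted p = 0.165). Tspan33 ran the other way at 4 weeks, with 1.03, 1.34 and 1.38 with OPP and 0.853, 0.86 and 1.01 with water (0.45, adjusted p = 0.181), and Slc4a1 had 1.08, 1.11 and 0.99 with OPP and 1.31, 1.36 and 1.16 with water (-0.26). The ranges of Tspan33 and of Slc4a1 did not overlap, and at 4 weeks 6.32% of all probes were higher and 6.16% lower on every OPP array. With quantile normalisation Klf1 was called at 4 weeks (-0.54) and averaged over times (-0.29), and with array weights it was called in the average (-0.26). In these fits 0.68%, 1.38% and 2.41% of all probes were called in either direction.

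Of the 78 probes of the wider erythroid list 0 were called between OPP and water in liver at any time or in the average. Those with the smallest p at 1 week were Zfpm1, the GATA1 cofactor FOG1 (0.49, SE 0.14, adjusted p = 0.116), Nfe2, a globin gene activator (0.49, SE 0.14, adjusted p = 0.135), and Tmod1, an actin-capping protein (-0.29, SE 0.09, adjusted p = 0.165). At 4 weeks they were Zfpm1 (0.46, SE 0.14), Abcb6 (-0.28, SE 0.09) and Blvrb, a biliverdin reductase (-0.31, SE 0.11), with adjusted p of 0.298 to 0.421. At 18 hours they were both probes of Mgst3, a glutathione transferase (0.77 and 0.72), and Bnip3l, needed to clear mitochondria from reticulocytes (-0.29, SE 0.11), with adjusted p of 0.522 to 0.598.

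Over time in liver, 13 of the 78 probes rose and 0 fell from 18 hours to 1 week in OPP mice, and 5 rose and 2 fell in water mice. These shares, 16.7% and 6.41% higher, are near the background of 14.7% and 4.46% of all probes. The haem synthesis genes Alad (0.55, SE 0.10), Abcb6 (0.54, SE 0.09), Slc25a38 (0.50, SE 0.10) and Tmem14c (0.56, SE 0.11), and Zfpm1 (1.01, SE 0.14), rose in OPP livers. In water livers Alad rose by 0.36 (SE 0.10) and Abcb6 by 0.40 (SE 0.09), and Uros fell by 0.62 (SE 0.14). From 18 hours to 4 weeks 16 (20.5%) rose and 2 fell in OPP livers and 9 (11.5%) rose and 0 fell in water livers, where 13.7% and 5.91% of all probes rose, with Fech, which inserts iron into haem, at 0.72 (SE 0.13) and 0.58 (SE 0.13). Pklr, the isoform gene shared by liver and red cells, rose by 1.45 (SE 0.27) in water livers. Hepatocytes make haem too and express several of these genes. Between 1 week and 4 weeks 0 of the 78 were called with either drink. The named liver probes most like the median of the 12 were Alyref (r = 0.910), Hint1 (0.887) and Senp2 (0.878), as a description over 18 arrays.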

How the data were processed

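Spleen and liver RNA of 36 samples was labelled as biotinylated cRNA and hybridised to Illumina BeadChips, per the labels' protocols. The authors' deposited values are linear ratios, each probe divided by its median over the 18 arrays of its tissue, which was tested on the files. Background correction and scaling are not given in the sources used here. A second table of the series, with 72 value columns that could not be tied to samples, was not used, so detection was not assessed. Precision is limited by how many arrays each group has.

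The ratios were converted to log2 and fitted per tissue with limma 3.58.1 in R 4.3.3 (lmFit and eBayes, 6 group means, 12 residual degrees of freedom), over all 23982 probes with Benjamini-Hochberg adjustment at 0.05. Intervals are 95% intervals of that model. The script was tested on simulated data. The contrasts were OPP minus water (per time, and as a mean of the times), later minus earlier time within each drink, and the OPP difference between times by an F test. Of the probes, 19344 have 1 gene symbol and 4638 have none. The pseudocount in the alternatives was 0.1, as was the filter on low ratios. Further alternatives were centring, quantile normalisation, array weights, a robust prior, the compared groups alone, a replicate block and leaving out each array.

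Members and lists were chosen with earlier results of these data known. Genes of the wider list named in the text are those with the smallest p in each comparison. The main model did not pair arrays by replicate number. Within each tissue, in 0 of 15 group pairs were all same-number correlations over 0.1, with single values up to 0.25 in spleen and 0.28 in liver. This cutoff cannot exclude a weak pairing, and pairing of spleen with liver arrays was not examined. No 2 arrays of a tissue were identical. The labels give no slide or scan batch, so none was tested.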

Additional observations from a re-analysis of the deposited data

Results flagged for a closer look

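Tfrc differed in opposite directions between OPP and water at 2 times in spleen: it was lower on every OPP array at 18 hours (-0.38) and higher on every OPP array at 1 week (0.44). Over all probes 10.7% were lower on every OPP array at 18 hours and 3.25% higher at 1 week. The 1-week difference was 0.13 without water replicate 3, whose ratio was 0.512 against 0.973 and 0.979 in the other water arrays. The limma F test of a change over times did not pass (adjusted p = 0.684, with an unadjusted value of 0.0155).

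In liver, Tfrc moved in opposite directions between 18 hours and 1 week, by 0.64 with OPP and -0.64 with water, with no overlap of the arrays in either. Over all probes 21.9% were higher with no overlap in OPP mice, and 9.04% were lower with no overlap in water mice. The OPP call was lost in all 6 fits that left out 1 array, and the water fall was not called. Log2 ratios of Tfrc on the water arrays of 18 hours ran from -0.08 to 0.95. The limma F test gave an adjusted p = 0.149, with an unadjusted value of 0.000926.

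Some probes moved in opposite directions in the 2 tissues with no overlap in either, and the difference between tissues was not tested. The OPP minus water difference of Epb42 at 1 week was -0.20 in spleen (-0.25 without water replicate 3) and 0.23 in liver. Over all probes 9.65% were lower on every OPP array in spleen and 7.01% higher in liver. Whether the Epb42 probe measured its transcript was not tested. Car2 probe b in OPP mice differed by 0.68 in spleen and -0.43 in liver from 18 hours to 1 week, and by 0.90 in spleen and -0.43 in liver from 18 hours to 4 weeks. Over all probes 12.9% and 36.2% were higher with no overlap in spleen over these spans, and 8.26% and 8.11% lower in liver. Without OPP replicate 1 of 18 hours the liver differences of Car2 probe b were -0.26 and -0.27, and neither was called. Tfrc in OPP mice differed by 0.40 in spleen and -0.79 in liver from 1 week to 4 weeks. At that step 43.8% of all probes were higher with no overlap in spleen, and 4.86% were lower in liver.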

How the results depend on the processing

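Of the 22 comparisons, 12 changed their count of called probes past 1.5 times or past 0 under some alternative, and 0 reversed. The cause of these changes was not tested. Of 3624 values of single probes under alternatives, 3448 kept their side of the threshold, 72 gained a call and 104 lost one. The rise from 18 hours to 4 weeks in spleen kept its count within 1.5 times under every alternative with either drink. Fitting the compared groups alone called 3 for spleen OPP against water at 4 weeks and 9 for OPP 1 week against 18 hours. It called 9 for OPP 4 weeks against 1 week and 0 for water 4 weeks against 1 week. In these fits 3.34%, 5.65%, 38% and 9.77% of all probes were called in either direction. Array weights called 2, 8 and 9 for the OPP comparisons in that order, and 3 for water 1 week against 18 hours. With these weights 5.73%, 6.07%, 39.2% and 0.83% of all probes were called. Centring called 2 for OPP and 3 for water from 1 week to 4 weeks in spleen, where 19.2% and 14.3% of all probes were called. Quantile normalisation called 2 and 0 there, and 4 for water 1 week against 18 hours, where 17.1%, 9.11% and 2.41% of all probes were called. The percentage of all spleen calls that were higher was then 66.1 (OPP) and 61.7 (water) from 18 hours to 4 weeks and 56.9 and 47.9 from 1 week to 4 weeks.

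In liver, array weights and quantile normalisation each called 1 for OPP against water averaged over times, where 2.41% and 1.38% of all probes were called. Quantile normalisation also called 1 at 4 weeks and 2 for OPP 1 week against 18 hours, where 0.68% and 10.8% of all probes were called. A robust prior called 0 for OPP against water at 1 week, where 0.963% of all probes were called.

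With the replicate number as a block, the liver Tfrc call between OPP and water at 1 week was lost, leaving 0 called (adjusted p = 0.0507 by limma). Of all probes 0.696% were called in that fit. Correlations of same-number arrays ran from -0.33 to 0.25 in spleen and -0.25 to 0.28 in liver.

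Leaving out 1 array at a time gave 1 to 8 called for spleen OPP 1 week against 18 hours, 2 to 4 for OPP 4 weeks against 1 week, 0 to 8 for water 1 week against 18 hours, 2 to 10 for water 4 weeks against 1 week and 0 to 1 for OPP against water averaged over times. In liver it gave 2 to 4 for OPP 1 week against 18 hours, 1 to 2 for water 1 week against 18 hours, 2 to 4 for water 4 weeks against 18 hours and 0 to 1 for OPP against water at 1 week. The share of all probes called moved too, from 0.2% to 4.77% for spleen OPP 1 week against 18 hours. The highest water counts in spleen, 8 and 10, came where 3.9% and 24% of all probes were called.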
